A study of Glycyrrhiza uralensis with 48 samples.

Results

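The genes described here are among those with the most exon entries in the licorice (Glycyrrhiza uralensis) gene models. In the deposited annotation, 775 of 34445 genes have exactly 1 mRNA with at least 20 exon features and overlap no other gene. All 775 have a row in the deposited expression table of 38463 rows. The rule used gene structure only and no expression value. Seedlings were grown in pots of sand and sampled at 45 days, with aerial and underground parts taken separately. Each part was measured in 8 groups of 3 libraries, 48 libraries in all. The groups were a distilled-water control, drought (35 to 45% of saturation moisture), salt (75 mM NaCl) and both stresses together (salt-drought), each without and with 2 mM silicon given as K2SiO3. The labels give no cultivar or genotype and do not say whether the 3 libraries of a group came from separate pots or plants, so the spread between them may be technical. Levels are FPKM, fragment counts scaled by transcript length and library depth, and changes are differences of log2(FPKM + 1) with their standard error (SE). A gene was called changed at an adjusted p under 0.05 from limma, a linear model fitted across all tested genes.

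As background, the exons of a plant gene are joined by the spliceosome after the introns are cut out of the primary transcript. Each intron has to be recognised by its own splice sites, so a transcript of many exons depends on many separate splicing events. Such transcripts also tend to be long. The files used here pair no identifier with a gene name or function, so the genes are named by identifier and described by structure and level. No genome sequence was used, so no sequence is shown.

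The exon count by which the genes were chosen is partly a property of the annotation. In 435 of the 775 genes, exon features with the same start and end are listed more than once. Every exon was repeated in 24 of these genes, and 411 had at least 1 exon listed once. No exon was listed more than 2 times in 355 of them, and in 80 an exon was listed 3 or more times. Coding segments were repeated in 0 of them. Counted by distinct coordinates, 437 genes had 20 or more exons, 97 of them with some repeated features. The other 338 reached 20 only through repeats and had 8 to 19 distinct exons, with a median of 13. The description as genes of 20 or more exons thus holds for 437 of the 775, and some results below are given for both subsets.

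The number of exon features ran from 20 to 224 with a median of 26, and the number of distinct exons from 8 to 72 with a median of 20. Of the genes with 20 or more distinct exons, 269 had 20 to 24, 85 had 25 to 29, 68 had 30 to 39 and 15 had 40 or more. Exonic length, counting each base once, ran from 858 to 15875 nt. Its median was 2940 nt for all 775 genes, 3543 nt for those with 20 or more distinct exons, 2182 nt for those that reach 20 by repeats, and 1066 nt for the other 22943 non-overlapping genes with 1 mRNA. The median distance from gene start to gene end was 9346 nt against 2451 nt for those other genes. Introns made up a median 68.2% of it, against 50.6%. Single exons were short, with a median of the gene medians of 108 nt against 207 nt, and so were introns, at 186 nt against 304 nt. Coding sequence filled a median 86% of the exonic length. The genes lay on 544 scaffolds, with at most 8 on one, and 375 were on the plus strand and 400 on the minus strand.

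The extremes show the range. Glyur000400s00020163 (Scaffold00400:35498-90745, minus strand) had 72 distinct exons in 8406 nt, all of them coding. Glyur000052s00005803 (Scaffold00052:352424-395985, minus strand) had 71 distinct exons and the greatest exonic length, 15875 nt. Glyur000713s00015587 (Scaffold00713:4707-43669, minus strand) had 69 distinct exons listed as 137 features. Glyur000011s00000713 (Scaffold00011:517559-540791, minus strand) had the most exon features, 224, which reduce to 46 distinct exons, and Glyur000701s00019651 (Scaffold00701:46955-69712, minus strand) had 119, which reduce to 41. Glyur000850s00032107 (Scaffold00850:24272-95639, plus strand) spanned 71368 nt, of which a single intron took 61588 nt. At the other end, Glyur000406s00019715 (Scaffold00406:24281-30105, minus strand) held 11 distinct exons in 858 nt.

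Across the 48 libraries, depth estimated from the spacing of low values came to between 15.6 M and 34.1 M fragments (M, mega), with a median of 19.6 M. At that depth 1 FPKM in a gene of 3000 nt corresponds to 46.7 to 102 fragments, so the median level of the genes, 12.7 FPKM in aerial controls, rests on several times that many. No 2 libraries were copies of each other, the highest correlation of any pair being 0.985. Transcripts typical of underground parts (24 genes that are not among the 775, chosen by level in the controls) were at a median 11% of their underground control level in aerial drought library 3, and at 14.4% in library 2 of aerial salt-drought with silicate. In library 3 of that group they were at 2.25% and in its library 1 at 0.950%. They were at 0.271 to 0.354% in the aerial controls and at 0.0207 to 0.0957% in aerial salt-drought. Counts for aerial drought and for silicate in aerial salt-drought are also given without the first pair of libraries. Conversely, 23 aerial transcripts were at up to 4.27% of their aerial control level in underground parts, the highest being underground salt-drought library 2.

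Median levels of the genes were above those of annotated genes in both plant parts. Over the 775 genes, the median of the mean levels was 12.7 FPKM in aerial controls and 11.99 FPKM in underground controls, against 2.29 and 2.62 FPKM over all annotated genes. The quartiles over the 775 were 4.92 and 24.8 FPKM in aerial and 5.34 and 23.3 FPKM in underground controls. Genes with 20 or more distinct exons (12.6 and 11.99 FPKM) and those that reach 20 by repeats (13.2 and 12.01 FPKM) had similar medians. Among all non-overlapping genes with 1 mRNA, the aerial control median was 1.25 FPKM with 1 exon, 1.08 with 2 to 4, 5.61 with 5 to 9, 9.92 with 10 to 14, 9.69 with 15 to 19, and 12.6 FPKM with 20 or more distinct exons. The medians were thus lowest in genes of 1 to 4 exons. For comparison, 687 genes with 1 to 9 exons and at least the 775 genes' median exonic length had medians of 7.64 FPKM in aerial and 7.66 FPKM in underground controls. No test was made between these classes.

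**Figure D1:**
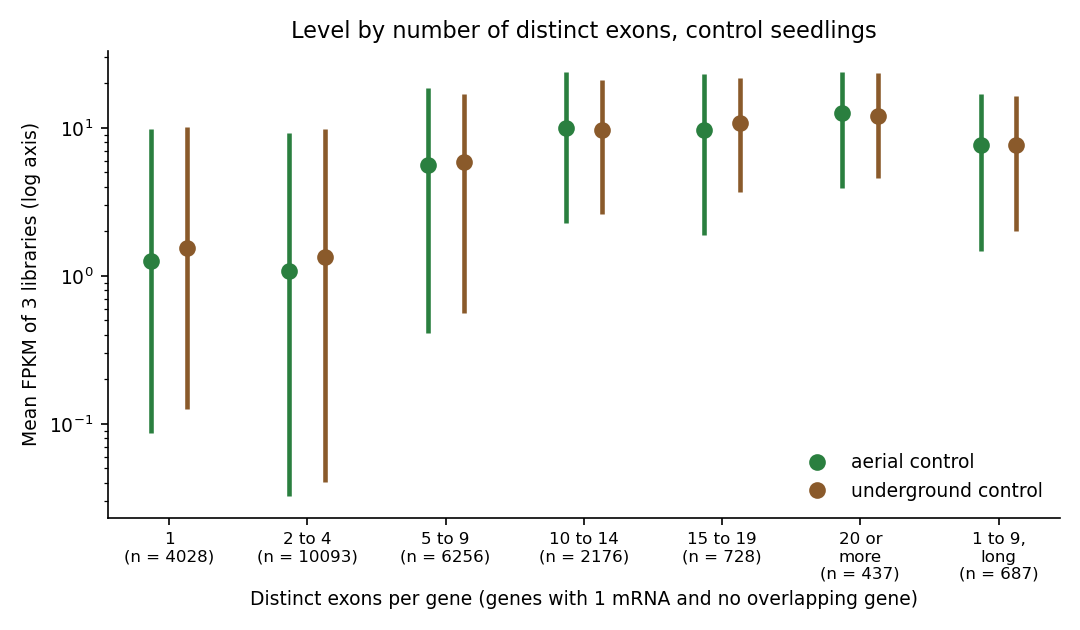
Level of genes by number of distinct exons in control seedlings without silicate. The vertical axis is the mean FPKM of 3 libraries on a log scale, points are medians over genes and vertical lines run from the lower to the upper quartile. Green is aerial and brown underground. Aerial medians are 1.25 FPKM with 1 exon, 1.08 with 2 to 4, 9.69 with 15 to 19 and 12.6 FPKM with 20 or more, and the long genes of 1 to 9 exons on the right sit at 7.64 FPKM.

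Genes just outside and just inside the threshold had medians of similar size. Genes with 19 exon features had a median of 11.6 FPKM in aerial controls (122 genes) and those with 20 features 9.57 FPKM (77 genes). By distinct exons, the medians were 11.6 FPKM at 19 (95 genes) and 14.1 FPKM at 20 (74 genes). A limit applies to the repeat genes: FPKM divides by a transcript length, and the files do not say whether repeated features were added up in it. Under the length that counts each base once, 27.9% of 771 low values of genes with repeats fell within 0.1 of a whole fragment, and under the summed length 22.2% of 473 did. Both are below the 40.8 to 62.2% per library of genes without repeats, on which the depth was fitted. The values therefore do not settle which length was used. Changes of repeat genes on the log2(FPKM + 1) scale, and which of them were tested, depend on that length too, most of all at low levels.

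The genes were detected in nearly every library. At least 1 FPKM was reached in all 48 libraries by 653 of the 775 (84.3%), by 78.7% of those with 20 or more distinct exons and by 91.4% of the repeat genes. The share was 42.9% of annotated genes, 71.3% of genes with 15 to 19 distinct exons (repeat genes included) and 65.2% of the long genes of 1 to 9 exons. In no library did 23 genes reach 1 FPKM, and 2 were listed at 0 throughout. The ratio between groups had a lower median than over annotated genes. Over the 673 genes whose 16 group means were all at least 1 FPKM, the median ratio of the highest to the lowest mean was 1.90. It was 2.44 over 16375 annotated genes, 1.98 over genes with 10 to 14 distinct exons and 1.96 over those with 15 to 19. By subset it was 1.79 with 20 or more distinct exons and 1.99 for repeat genes, the latter not below those exon classes. The set's share of all FPKM lay between 2.17% (aerial salt-drought) and 2.65% (underground salt with silicate). The median level over the 775 genes, averaged over the 3 libraries of a group, was lowest in aerial salt-drought at 11.4 ± 0.550 FPKM (SD, n = 3) and highest in underground salt with silicate at 13.3 ± 0.582 FPKM (SD, n = 3).

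The genes with the most exons were at modest levels. Glyur000400s00020163, with 72 exons, was at 6.66, 6.84 and 7.02 FPKM in aerial controls and at 5.87, 6.78 and 6.75 FPKM in underground controls. Its 16 group means lay between 5.89 and 7.90 FPKM. Glyur000052s00005803, the longest transcript, was at 2.17, 2.99 and 2.33 FPKM in aerial and 4.62, 5.72 and 5.12 FPKM in underground controls, which do not overlap. Glyur000713s00015587 was at 9.06, 7.56 and 8.23 FPKM in aerial controls and at 3.38, 3.27 and 2.24 FPKM in aerial salt-drought, a fall of 1.24 on the log2 scale (adjusted p = 6e-05, limma). With silicate added to salt-drought it was at 6.15, 9.85 and 6.55 FPKM, a rise of 1.09 (adjusted p = 0.00336, limma). This gene was named for its exon number, and its changes were picked out after the values were seen. The silicate call was lost when only the groups compared were fitted, and the other alternatives are not given for this gene. The gene with the longest intron, Glyur000850s00032107, stayed between 14.1 and 20.7 FPKM in its 16 group means.

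The genes with the highest levels differed between the parts. In aerial controls the 2 highest genes were Glyur000013s00003209 (Scaffold00013:175859-197165, 32 distinct exons) at 389.2, 456 and 431 FPKM, and Glyur005102s00040028 (Scaffold05102:3590-8077, 13 distinct exons) at 595, 307 and 277 FPKM. Underground controls held the first at 34.2, 33.7 and 31.9 FPKM and the second at 80.4, 70.0 and 64.5 FPKM, below every aerial control. The 2 highest genes in underground controls were Glyur001855s00032353, at 669.6, 615 and 474 FPKM, and Glyur000600s00022491 (Scaffold00600:91692-101123, 24 distinct exons), at 336, 297 and 297 FPKM. The latter was also at 185, 113 and 139 FPKM in aerial controls.

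Plant part separated these genes about as often as other genes when levels were not matched, in both directions. Between unstressed underground and aerial parts 468 of 743 tested members were called (63%), 245 higher and 223 lower underground, against 58.7% of the 26335 tested genes, 31.1% higher and 27.5% lower. The median change was 0.02 log2 over members and 0.06 over all tested genes. Grouped by mean level, 65.5% of members under 4 FPKM were called, against 47.3% of all tested genes. At higher levels members were called less often, at 61.9% against 63.6% from 4 to 10 FPKM. The shares were 62% against 66.2% from 10 to 25 FPKM and 64% against 70.6% above that. These differences were not tested. By size, 153 of the 468 were under 0.5 log2, 82 were at least 1 log2 higher and 73 at least 1 log2 lower underground. Among genes with 20 or more distinct exons 251 of 408 were called, and among the repeat genes 217 of 335. In whole plant parts, fewer cells of a type and less RNA per cell cannot be told apart.

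Glyur001855s00032353 (Scaffold01855:472-5554, minus strand, 12 distinct exons) was at 13.1, 14.8 and 25.5 FPKM in aerial controls against the 474 to 669.6 FPKM given above for underground controls. All underground values were far above all aerial ones, a difference of 5.01 log2 (SE 0.41, adjusted p = 1.29e-12, limma). Glyur000580s00024204 (Scaffold00580:50401-55252, minus strand, 12 distinct exons) rose from 6.85, 0.691 and 5.24 FPKM to 61.6, 66.1 and 147 FPKM, by 4.29 log2 (SE 0.67, adjusted p = 1.02e-06, limma). In the other direction, Glyur000072s00008105 (Scaffold00072:45219-49658, minus strand, 14 distinct exons) was at 92.3, 92.0 and 148 FPKM in aerial and at 1.55, 1.44 and 2.10 FPKM in underground controls. That is a fall of 5.34 log2 (SE 0.36, adjusted p = 7.79e-15, limma). Glyur000273s00014661 (Scaffold00273:111041-121700, minus strand, 24 distinct exons) fell from 47.9, 55.0 and 53.3 FPKM to 2.03, 1.56 and 0.926 FPKM, by 4.43 log2 (SE 0.34, adjusted p = 2.01e-13, limma). These 4 genes kept their calls and directions under every alternative run.

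Drought alone changed few of these genes in aerial parts. Of 720 tested members 20 were called (2.78%), 13 higher and 7 lower, against 3.33% of all tested genes, 1.66% higher and 1.66% lower. The median change was 0.04 log2 over both members and all tested genes. After rescaling the libraries to a common median ratio 18 were called, 9 higher and 9 lower. Fitted on the libraries of the 2 groups alone, 1 was called. Without 1 library the count fell to 12 (control library 1), 8 (control library 2 or 3), 4 (drought library 1) or 9 (drought library 2). Without drought library 3, the one with the most underground transcripts, 14 were called, 9 higher and 5 lower.

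The clearest fall was in Glyur000274s00012561 (Scaffold00274:214775-218078, plus strand, 12 distinct exons), from 44.0, 57.9 and 53.5 FPKM in control to 14.1, 12.9 and 21.3 FPKM in drought. This was a fall of 1.65 log2 (SE 0.29, adjusted p = 0.00399, limma) that kept its call under every alternative. Glyur000156s00011998 (Scaffold00156:154008-173285, plus strand, 8 distinct exons) fell from 24.99, 29.99 and 35.8 FPKM to 12.2, 14.7 and 19.5 FPKM, by 0.93 log2 (SE 0.23, adjusted p = 0.03, limma). Glyur000069s00004055 (Scaffold00069:174573-179135, plus strand, 18 distinct exons) rose from 10.1, 9.05 and 12.3 FPKM to 49.7, 35.1 and 22.2 FPKM, by 1.62 log2 (SE 0.37, adjusted p = 0.0225, limma). Glyur000882s00021652 (Scaffold00882:18740-27180, plus strand, 27 distinct exons) rose from 0.433, 1.22 and 1.18 FPKM to 4.32, 5.30 and 21.6 FPKM, by 2.26 log2 (SE 0.52, adjusted p = 0.0228, limma). Its highest value was in drought library 3, the one with the most underground transcripts, where it exceeded the 1.87 to 6.28 FPKM of underground controls. The last 3 calls each failed without single libraries. For the gene named last these were drought library 3 (adjusted p = 0.0895) and each control library (0.0503 to 0.0807), and it also failed with a pseudocount of 0.1 (0.107). For Glyur000069s00004055 they were control library 1 or 2 and drought library 1 or 2 (0.0616 to 0.105), and for Glyur000156s00011998 control library 2 or 3 and drought library 1 or 2 (0.0824 to 0.13).

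Salt in aerial parts called 38 of 720 members (5.28%), 14 higher and 24 lower, against 6.96% of all tested genes, 2.99% higher and 3.97% lower. Median change was -0.06 log2 over members and -0.01 over all tested genes, and it was 0.02 over members without salt library 1. The count was 11 without control library 1 and 24 without salt library 1, and 3 when only the 2 groups were fitted. Glyur000481s00027082 (Scaffold00481:67237-72997, plus strand, 8 distinct exons) rose from 16.6, 31.1 and 23.0 FPKM to 91.3, 100.7 and 80.4 FPKM, by 1.94 log2 (SE 0.21, adjusted p = 1.68e-05, limma). Only 213 of its 2417 exonic nt are annotated as coding. Glyur000694s00023255 (Scaffold00694:77183-89048, minus strand, 15 distinct exons) fell from 39.2, 28.5 and 32.1 FPKM to 7.90, 15.1 and 11.6 FPKM, by 1.48 log2 (SE 0.29, adjusted p = 0.00396, limma). Glyur000274s00012561, which fell in drought, was at 12.7, 28.96 and 19.7 FPKM in salt, a fall of 1.36 log2 (SE 0.29, adjusted p = 0.00857, limma). Glyur000718s00020280 (Scaffold00718:50067-57118, minus strand, 21 distinct exons) rose from 7.09, 14.6 and 21.2 FPKM to 49.1, 58.6 and 43.1 FPKM, by 1.85 log2 (SE 0.45, adjusted p = 0.0181, limma). That call failed without control library 1 (adjusted p = 0.105) or salt library 2 (0.0501).

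Salt and drought together changed many more of the genes in aerial parts, and mostly downward. Of 720 tested members 252 were called (35%), 58 higher and 194 lower, against 29.3% of all tested genes, of which 13% were higher and 16.2% lower. The median change was -0.14 log2 over members and -0.05 over all tested genes. Grouped by mean level, the shares called were 16.5% of members against 16.3% of all tested genes under 4 FPKM. They were 31.7% against 29.9% from 4 to 10 FPKM, 42.3% against 36% from 10 to 25 FPKM and 39.5% against 43.1% above that. These differences were not tested, and members were below all tested genes at the highest levels. The subsets differed in balance, a difference that was not tested. Of 389 tested genes with 20 or more distinct exons 141 were called, 9 higher and 132 lower, with a median of -0.23. Of 331 repeat genes 111 were called, 49 higher and 62 lower, with a median of -0.02. Rescaling the libraries left the balance as it was, at 69 higher and 205 lower members, and without any 1 library 170 to 237 members were called.

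**Figure D2:**
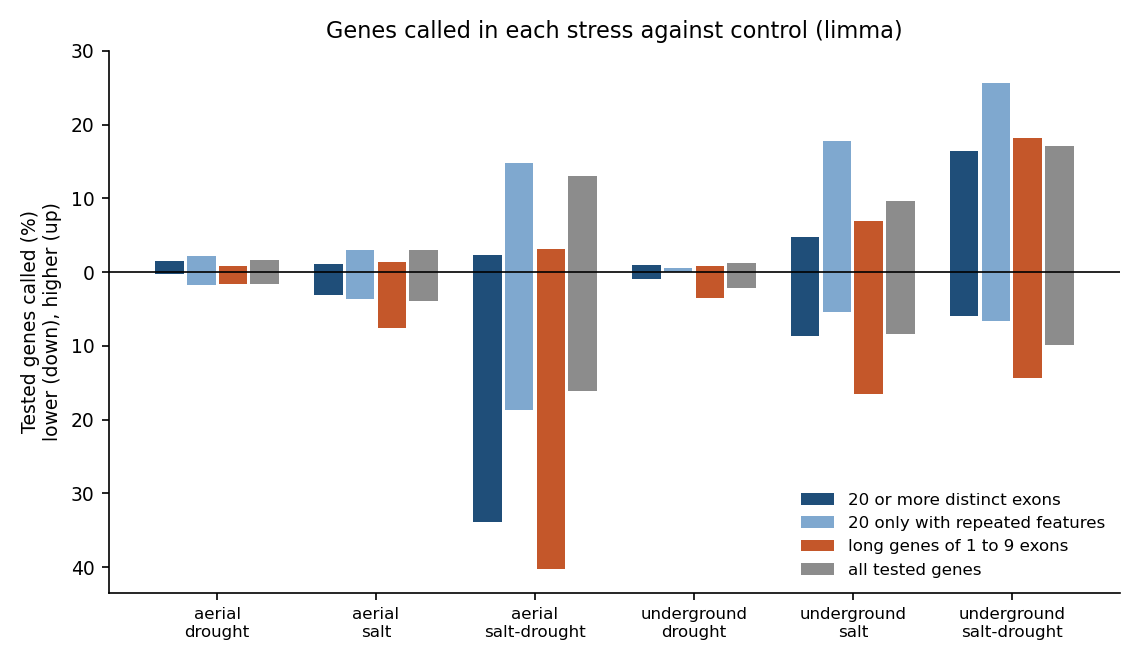
Percentage of tested genes called higher (above 0) or lower (below 0) in each stress against its control, at an adjusted p under 0.05 in limma. Dark blue bars are the genes with 20 or more distinct exons, light blue bars those that reach 20 by repeated features, orange bars the long genes of 1 to 9 exons, and grey bars all tested genes. In aerial salt-drought 33.9% of the dark blue genes and 40.2% of the orange genes were lower, against 16.2% of all tested genes.

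The same balance was seen in long genes of few exons. Of 567 tested genes with 1 to 9 exons and at least 2940 nt of exon, 246 were called in aerial salt-drought, 18 higher and 228 lower, with a median of -0.35. Split by exonic length, genes of 1 to 9 distinct exons had median changes of 0.05 log2 under 1000 nt, -0.02 at 1000 nt up to 2000 nt, -0.20 at 2000 nt up to 3000 nt, -0.33 at 3000 nt up to 4000 nt and -0.40 at 4000 nt or more. Genes of 20 or more distinct exons had medians of -0.09 at 2000 nt up to 3000 nt (95 genes), -0.17 at 3000 nt up to 4000 nt (147 genes) and -0.34 at 4000 nt or more (140 genes). At each of these lengths the median fall was smaller in genes of 20 or more exons than in genes of 1 to 9 exons. When a smooth trend of change on exonic length was taken out in every library, an alternative added after the data were seen, 239 members were called, 149 higher and 90 lower. The genes with 20 or more distinct exons then divided into 65 higher and 54 lower. Shares over all tested genes in that fit are not given here, so these counts have no background beside them. The trend was fitted on genes that are not members and then subtracted from all genes by length. Members lose by it whatever they share with the trend of other genes. The balance that remained was not tested as an account of the falls.

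**Figure D3:**
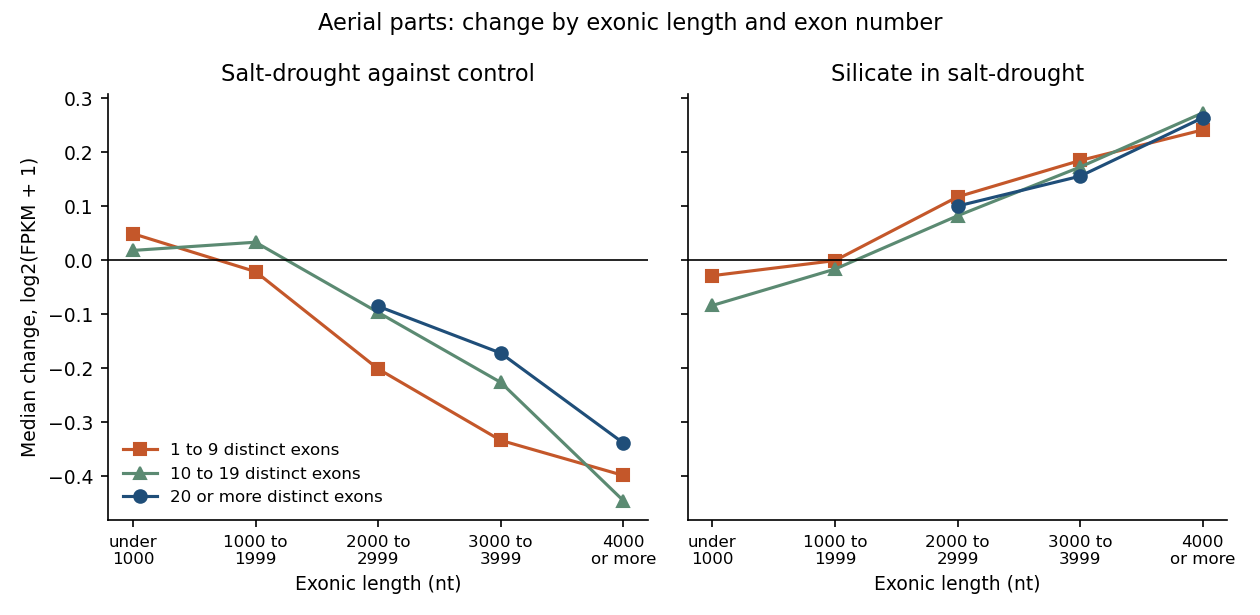
Median change on the log2(FPKM + 1) scale by exonic length in aerial parts, for salt-drought against control (left) and for silicate in salt-drought seedlings (right). Orange squares are genes of 1 to 9 distinct exons, green triangles of 10 to 19 and blue circles of 20 or more. Points over fewer than 20 genes are left out. In salt-drought medians fall with length in all exon classes, to -0.34 for genes of 20 or more exons at 4000 nt or more, and with silicate they rise with length, to 0.26.

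The length pattern was present in each aerial salt-drought library. For each library the median deviation of long genes of few exons was compared with that of short ones (under 1000 nt). The difference was -0.24, -0.21 and -0.38 log2 in the 3 aerial salt-drought libraries and 0.15, 0.16 and 0.05 in the 3 aerial controls, which do not overlap. Genes of 20 or more distinct exons, relative to all tested genes, were at -0.11, -0.11 and -0.18 in salt-drought and at 0.08, 0.06 and 0.02 in control. No other library of the 48 was as low on the first measure. On the second, aerial salt library 1 and library 2 of the unstressed underground group with silicate, both at -0.12, were within the salt-drought range. RNA integrity or read coverage per library was not part of the files used here, so whether either moved with this pattern was not tested.

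**Figure D4:**
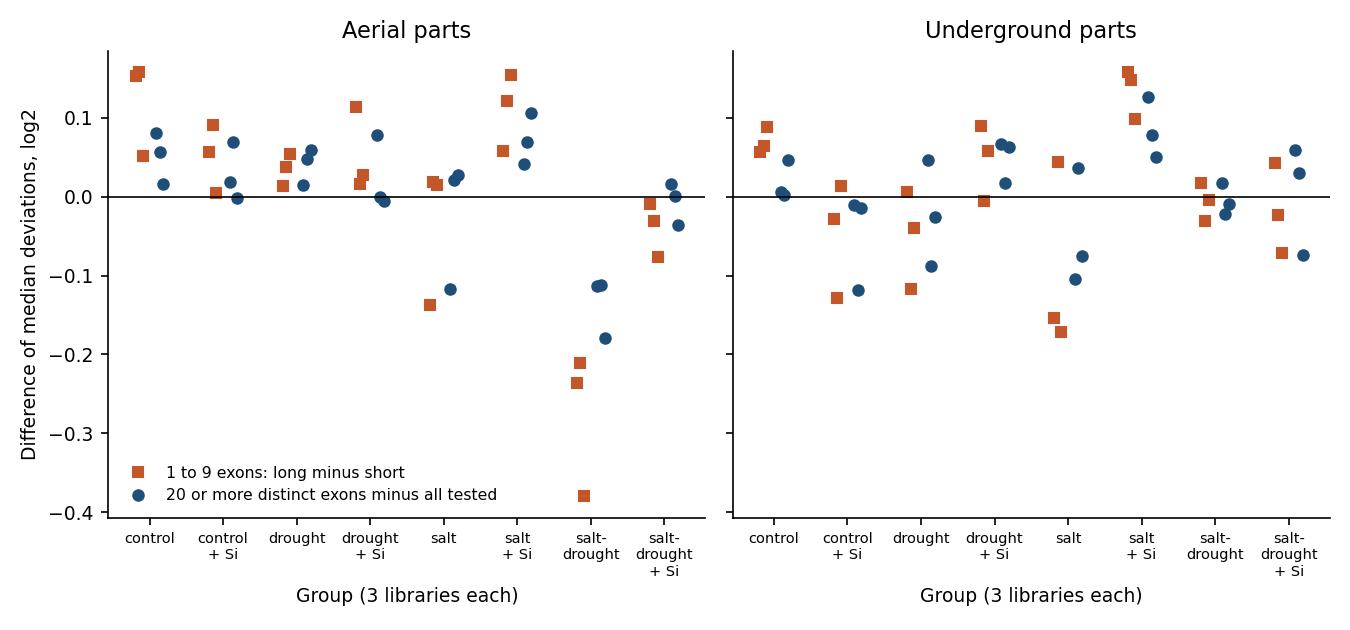
Length pattern in every library, as differences of median deviations on the log2 scale, with aerial parts on the left and underground parts on the right. Orange squares are long minus short genes of 1 to 9 exons and blue circles are genes of 20 or more distinct exons minus all tested genes, each point 1 library. The 3 aerial salt-drought libraries are lowest on the first measure, at -0.38 to -0.21, and lie at -0.18 to -0.11 on the second, where aerial salt library 1 is at -0.12.

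Single genes changed by far more than these medians. Glyur000481s00027082, which rose in salt, was at 135, 155 and 134 FPKM in aerial salt-drought, a rise of 2.57 log2 over control (SE 0.21, adjusted p = 1.61e-07, limma). Glyur000002s00000231 (Scaffold00002:160610-168409, plus strand, 9 distinct exons listed as 29 features) rose from 1.08, 2.10 and 2.11 FPKM to 8.31, 7.85 and 6.98 FPKM, by 1.68 log2 (SE 0.27, adjusted p = 0.00019, limma). Glyur000324s00015449 (Scaffold00324:169722-182800, minus strand, 19 distinct exons) fell from 43.1, 27.9 and 42.0 FPKM to 4.70, 7.06 and 4.07 FPKM, by 2.63 log2 (SE 0.39, adjusted p = 8.73e-05, limma). Glyur000449s00027094 (Scaffold00449:21135-50188, plus strand, 23 distinct exons) fell from 6.42, 11.7 and 9.19 FPKM to 0.810, 1.30 and 0.915 FPKM, by 2.31 log2 (SE 0.40, adjusted p = 0.000382, limma). In all 4 genes the salt-drought values lay beyond the controls, and the calls held under every alternative, the length trend included.

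Underground, drought alone changed 10 of 734 tested members (1.36%), 6 higher and 4 lower, against 3.44% of all tested genes, 1.21% higher and 2.23% lower. Members had a median change of -0.01 log2 and all tested genes one of 0.03. The count was 5 without control library 1 or drought library 3, and 6 with the 2 groups alone. Glyur000069s00004055, which rose in aerial drought, rose underground too, from 5.24, 5.10 and 3.77 FPKM to 12.4, 9.21 and 8.71 FPKM, by 0.96 log2 (SE 0.17, adjusted p = 0.00233, limma), under every alternative. Glyur000718s00020280 rose from 18.3, 19.5 and 26.7 FPKM to 63.9, 36.4 and 45.3 FPKM, by 1.12 log2 (SE 0.27, adjusted p = 0.0244, limma). Glyur000048s00002252 (Scaffold00048:301366-323773, minus strand, 25 distinct exons) fell from 10.8, 10.7 and 10.7 FPKM to 8.35, 7.02 and 7.98 FPKM, by 0.43 log2 (SE 0.09, adjusted p = 0.0126, limma). Glyur000454s00019916 (Scaffold00454:62829-73718, minus strand, 23 distinct exons) fell from 16.9, 17.4 and 16.6 FPKM to 14.0, 12.2 and 12.5 FPKM, by 0.37 log2 (SE 0.09, adjusted p = 0.0243, limma). Both falls were small, and the groups did not overlap. Without single libraries 3 of these calls failed. For Glyur000718s00020280 these were control library 1 or 2 and drought library 1 or 3 (adjusted p 0.0594 to 0.13), for Glyur000048s00002252 drought library 2 (0.0838), and for Glyur000454s00019916 each control library and drought library 2 or 3 (0.0639 to 0.113).

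Salt underground called 131 of 734 members (17.8%), 78 higher and 53 lower, against 18% of all tested genes, 9.64% higher and 8.35% lower. After rescaling the balance turned, with 69 higher and 87 lower of 156 called, so no direction is given for the set. The balance also differed between the subsets, without a test of that difference. Of 402 genes with 20 or more distinct exons, 19 were higher and 35 lower, and of 332 repeat genes, 59 were higher and 18 lower. Without control library 3 the count for all members was 69, and with the 2 groups alone it was 35. Grouped by mean level, members were called less often than all tested genes, a difference that was not tested. The shares were 2.11% against 7.89% under 4 FPKM and 14.7% against 17.3% from 4 to 10 FPKM. They were 19.9% against 25% from 10 to 25 FPKM and 26.6% against 28.5% above that. Glyur000237s00014418 (Scaffold00237:167307-173495, plus strand, 15 distinct exons) rose from 61.3, 85.9 and 66.9 FPKM to 182, 218 and 131 FPKM, by 1.28 log2 (SE 0.25, adjusted p = 0.00163, limma). Glyur000228s00011929 (Scaffold00228:228143-232163, minus strand, 12 distinct exons) rose from 8.21, 17.9 and 7.73 FPKM to 28.6, 27.7 and 20.9 FPKM, by 1.20 log2 (SE 0.32, adjusted p = 0.0142, limma). That call failed without control library 1 (adjusted p = 0.0633) or 3 (0.0793). Glyur000989s00020260 (Scaffold00989:43020-48463, plus strand, 14 distinct exons) fell from 32.0, 30.7 and 44.2 FPKM to 11.5, 16.5 and 17.8 FPKM, by 1.18 log2 (SE 0.24, adjusted p = 0.00244, limma). Glyur000096s00005924 (Scaffold00096:134478-142534, plus strand, 15 distinct exons) fell from 70.2, 80.4 and 84.7 FPKM to 36.0, 38.5 and 34.8 FPKM, by 1.08 log2 (SE 0.17, adjusted p = 0.000334, limma).

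Salt-drought underground called 197 of 734 members (26.8%), 151 higher and 46 lower, against 27% of all tested genes, 17.1% higher and 9.95% lower. A median change of 0.11 log2 was found over both members and all tested genes. After rescaling 107 were higher and 86 lower, with a median of 0.02, so the excess of higher calls was smaller on that scale. Without control library 3 the count was 129 and without salt-drought library 3 it was 126. Grouped by mean level, members were again called less often than all tested genes, without a test. The shares were 7.37% against 15.2% under 4 FPKM and 24.2% against 25.5% from 4 to 10 FPKM. They were 28.7% against 35.2% from 10 to 25 FPKM and 37.3% against 40% above that. The subsets differed, again without a test. Genes with 20 or more distinct exons were called at 5.08, 20.6, 24 and 32.3% in the same level groups, from low to high. Repeat genes were called at 11.1, 28, 34.4 and 43.2%. Of 306 members without repeated features 48 were higher and 17 lower, and of 428 with repeated features 103 and 29. The difference between long and short genes of few exons was 0.02, -0.03 and -0.00 log2 in the salt-drought libraries and 0.06, 0.06 and 0.09 in the controls.

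Glyur000228s00011929, which rose in salt, was at 76.2, 49.5 and 66.2 FPKM in underground salt-drought, a rise of 2.48 log2 over control (SE 0.32, adjusted p = 2.34e-05, limma). Glyur000096s00005924 fell to 25.2, 25.8 and 26.3 FPKM, by 1.56 log2 (SE 0.17, adjusted p = 3.92e-06, limma). Glyur001156s00035641 (Scaffold01156:12117-21410, plus strand, 21 distinct exons) fell from 12.2, 14.5 and 11.8 FPKM to 4.59, 4.30 and 3.67 FPKM, by 1.42 log2 (SE 0.19, adjusted p = 2.75e-05, limma). These 3 held under every alternative. Glyur000882s00021652 was at 4.07, 1.87 and 6.28 FPKM in control and at 27.8, 6.84 and 19.5 FPKM in salt-drought, a rise of 1.82 log2 (SE 0.61, adjusted p = 0.032, limma). Its lowest salt-drought value was just above its highest control value. The call failed without control library 1 or 2 or salt-drought library 1 or 3 (adjusted p 0.0629 to 0.144).

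Some of these changes were called in both plant parts. In drought 2 of 713 members tested in both parts were called in both (0.281%, against 0.763% of all genes tested in both). In salt 12 were (1.68%, against 3.11%). Of these, 6 rose in both (0.842% of members, against 1.13% of all tested genes) and 6 fell in both (0.842%, against 1.78%). In salt-drought 69 were called in both (9.68%, against 10.9%), which is 27.5% of the 251 of them called in aerial and 35% of the 197 called in underground parts, against 36% and 38.1% for all tested genes. Of these 69, 30 rose in both (4.21% of members, against 4.43% of all tested genes), 26 fell in both (3.65%, against 4.81%) and 13 fell in aerial and rose in underground parts (1.82%, against 1.33%). The 3 stress comparisons of a part share their control libraries. Over all 6, 398 of 741 tested members were called at least once (53.7%, against 45.9% of all tested genes) and 343 never. These shares were not matched for level, and in all tested genes the share called rose with level in each comparison. The only member called in all 6, singled out after its values were seen, was Glyur000221s00012515 (Scaffold00221:142881-146571, minus strand, 11 distinct exons). It rose in each, with adjusted p from 5.98e-06 to 0.00259 (limma). Its mean went from 5.44 ± 0.448 FPKM in aerial controls to 12.6 ± 2.16 in drought, 18.4 ± 5.87 in salt and 18.2 ± 3.005 in salt-drought (SD, n = 3). Underground it went from 6.86 ± 0.406 FPKM to 11.2 ± 1.11, 12.4 ± 2.13 and 12.3 ± 1.07 (SD, n = 3).

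The difference between the responses of the parts was tested directly. For salt-drought 183 of 743 members were called (24.6%), 170 with the more positive response underground and 13 with the more positive response in aerial parts, against 17.7% of all tested genes, 12.8% and 4.85% by direction. The median difference was 0.24 log2 over members and 0.14 over all tested genes. Of 311 members without repeated features 81 and 0 were called by direction, and of 432 with repeated features 89 and 13. Among the latter, 97 had 20 or more distinct exons, with 23 and 1 called. Rescaling gave 130 and 29. With the length trend taken out, 61 and 58 were called, with no share over all tested genes given here for that fit. Without aerial salt-drought library 3, 121 were called in all. For salt 19 members were called (2.56%, against 4.03% of all tested genes, 2.38% and 1.65% by direction), 14 and 5 by direction and 13 and 15 after rescaling. With the 2 pairs of groups alone 0 were called for salt. The salt count was 10 without aerial control library 1 or 2 or underground control library 1, 6 without underground control library 3, 12 without aerial salt library 1, 33 without aerial salt library 2, and 11 without underground salt library 2 or 3. For drought 3 members were called (0.404%, against 0.452%, 0.197% and 0.254% by direction), 2 with the more positive response underground. Fitted on those 4 groups alone, 0 were called for drought. The drought count was 1 without aerial control library 3, aerial drought library 1 or 2, underground control library 3, or underground drought library 1 or 2.

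Glyur000756s00019315 (Scaffold00756:105866-115220, minus strand, 26 distinct exons) shows the salt-drought contrast. In aerial parts it was at 47.7, 50.4 and 46.1 FPKM in control and at 22.4, 21.2 and 19.1 FPKM in salt-drought, with no overlap. In underground parts it was at 32.9, 34.5 and 31.8 FPKM and at 35.5, 31.7 and 35.8 FPKM, which overlap. The responses differed by 1.22 log2 (SE 0.14, adjusted p = 3.26e-07, limma). Glyur000124s00011967 (Scaffold00124:282511-291913, plus strand, 26 distinct exons) moved in opposite directions. It was at 42.5, 45.5 and 40.6 FPKM in aerial control and 30.98, 24.3 and 22.3 FPKM in aerial salt-drought, and at 34.0, 31.3 and 31.3 FPKM in underground control and 46.3, 44.7 and 44.2 FPKM in underground salt-drought. That difference was 1.19 log2 (SE 0.16, adjusted p = 6.85e-06, limma). Glyur000002s00000231, which rose in aerial salt-drought, was at 0.655, 0.644 and 0.698 FPKM in underground control and 0.606, 1.02 and 0.163 FPKM in underground salt-drought, a difference in response of -1.78 log2 (SE 0.35, adjusted p = 0.000632, limma). Glyur000842s00023837 (Scaffold00842:45079-53193, minus strand, 14 distinct exons) went from 44.3, 48.4 and 51.5 to 79.5, 77.9 and 91.8 FPKM in aerial parts, and from 54.3, 59.98 and 56.3 to 65.3, 67.6 and 67.0 FPKM underground. Its response was higher in aerial parts by 0.55 log2 (SE 0.12, adjusted p = 0.00139, limma).

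Glyur000282s00015747 (Scaffold00282:6384-12918, minus strand, 17 distinct exons) showed opposite directions in both single stresses. In aerial parts it was at 31.3, 35.9 and 33.8 FPKM in control, at 50.9, 43.5 and 44.4 FPKM in drought and at 38.1, 39.4 and 42.8 FPKM in salt. Underground it was at 84.5, 84.6 and 91.2 FPKM in control, at 74.4, 66.7 and 67.0 FPKM in drought and at 55.8, 58.8 and 70.4 FPKM in salt. In each part the stressed values lay beyond the controls. For Glyur000274s00012561, which fell in aerial drought and salt, underground values were 18.6, 17.6 and 11.5 FPKM in control, 14.5, 13.4 and 20.2 FPKM in drought and 25.7, 24.1 and 19.3 FPKM in salt.

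**Figure D5:**
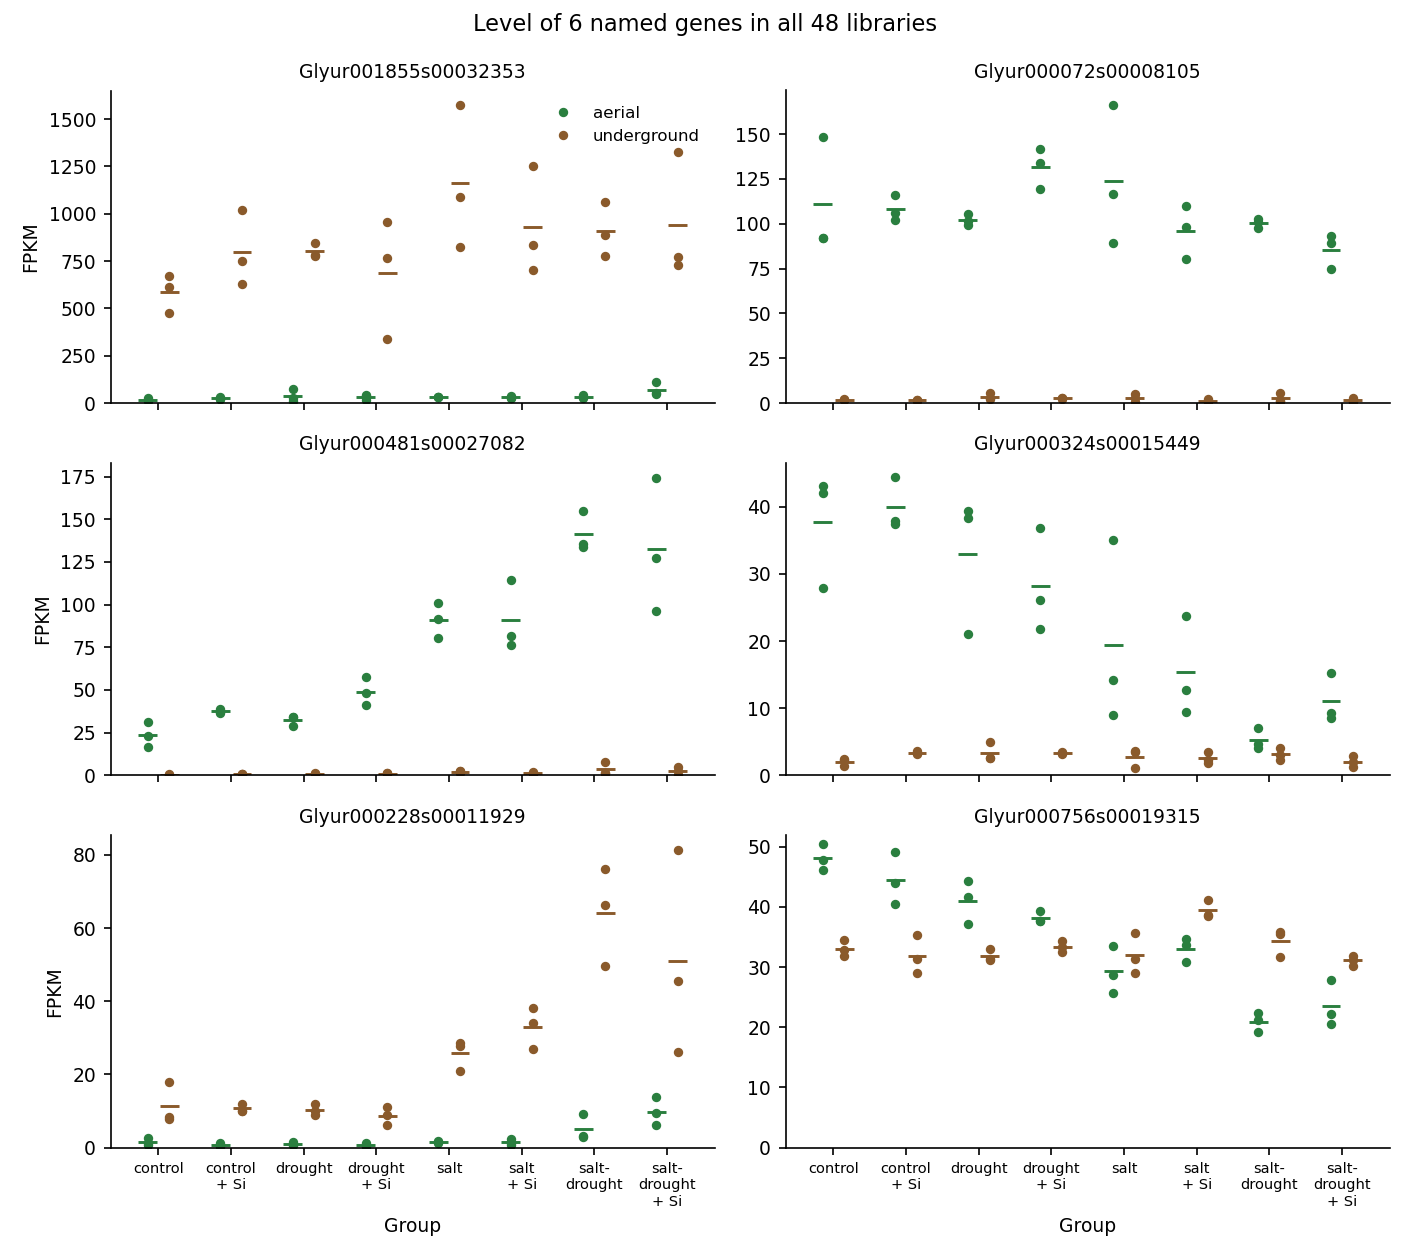
FPKM of 6 named genes in all 48 libraries, by group, with Si marking groups given silicate. Green points are aerial and brown points underground libraries, and short bars are means of 3. The first pair differ between parts at every condition. Glyur000481s00027082 rises in aerial salt and salt-drought (to a mean of 141 FPKM), Glyur000324s00015449 falls there to 5.28 FPKM, Glyur000228s00011929 rises underground to 64.0 FPKM, and Glyur000756s00019315 falls in aerial salt-drought from 48.1 to 20.9 FPKM.

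Most members called with silicate were called in aerial salt-drought. There 98 of 720 members were called with silicate (13.6%), 79 higher and 19 lower, against 9.24% of all tested genes, 5.81% higher and 3.43% lower. The median change was 0.12 log2 over members and 0.03 over all tested genes. Genes with 20 or more distinct exons were 60 higher and 4 lower of 389, with a median of 0.18, and repeat genes 19 higher and 15 lower of 331, with a median of 0.01. Changes again followed length, with the sign opposite to that of salt-drought itself. They ran to a median of 0.26 log2 in genes of 20 or more exons at 4000 nt or more and to 0.24 in genes of 1 to 9 exons of that length. These silicate and stress comparisons share the aerial salt-drought libraries, so they are not independent. With the length trend taken out 84 members were called, 38 higher and 46 lower, again without a share over all tested genes given here.

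The silicate count in aerial salt-drought rested on few libraries. It was 14 without salt-drought library 3, 21 without library 2 and 57 without library 3 of salt-drought with silicate. Without that library 2 and aerial drought library 3, the pair with the most underground transcripts, 20 were called, 17 higher and 3 lower. Libraries 1 and 3 of salt-drought with silicate, which were kept, held these transcripts at a median 0.950 and 2.25%. Both lay above every aerial salt-drought library without silicate. A fit on those 2 groups gave 0 calls. Glyur004340s00039821 (Scaffold04340:52-15295, plus strand, 19 distinct exons) rose from 3.97, 3.06 and 1.98 FPKM in salt-drought to 10.1, 11.5 and 8.32 FPKM with silicate, by 1.48 log2 (SE 0.22, adjusted p = 0.00209, limma). Aerial controls held it at 11.5, 12.1 and 9.73 FPKM. Glyur001700s00031782 (Scaffold01700:7996-12560, plus strand, 9 distinct exons) fell from 26.4, 25.03 and 32.0 FPKM to 16.5, 14.3 and 16.9 FPKM, by 0.76 log2 (SE 0.11, adjusted p = 0.00209, limma). Both calls held without each library and were lost with only the 2 groups fitted (adjusted p = 0.0622).

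In the other 7 silicate comparisons limma called 0 or 1 member. In unstressed aerial parts Glyur000179s00010712 (Scaffold00179:238003-250204, minus strand, 33 distinct exons) rose from 10.4, 9.65 and 11.7 FPKM to 16.5, 14.3 and 13.1 FPKM, by 0.43 log2 (SE 0.09, adjusted p = 0.032, limma), the only one of 720, against 0.445% of all tested genes, 0.248% higher and 0.197% lower. It lost its call without control library 1 or 2, or library 1 or 2 of the silicate group (adjusted p 0.106 to 0.174), and without library 3 of the silicate group 3 members were called. In underground salt Glyur000124s00011967 rose from 33.7, 33.9 and 34.1 FPKM to 44.7, 44.1 and 49.0 FPKM, by 0.42 log2 (SE 0.08, adjusted p = 0.0445, limma), the only one of 734, against 0.159% of all tested genes, 0.0449% higher and 0.114% lower. It lost its call without salt library 1 or any library of the silicate group (adjusted p 0.0797 to 0.168) and with the length trend taken out (0.11). Without salt library 2, 34 members were called there, and without salt library 3, 3.

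The remaining 5 comparisons gave 0 called members by limma. In aerial drought and in aerial salt 0% of all tested genes were called. At an unadjusted p under 0.05, members passed in 43 of 720 cases in aerial drought (5.97%, against 9.64% of all tested genes) and in 50 in aerial salt (6.94%, against 5.44%). Underground, the adjusted calls over all tested genes were 0.241% without stress (0.163% higher and 0.0776% lower), 0% in drought and 0.00409% in salt-drought. The unadjusted threshold was passed there by 52 of 734 members without stress (7.08%, against 9.16% of all tested genes), by 60 in drought (8.17%, against 4.81%) and by 64 in salt-drought (8.72%, against 10.3%). Without library 3 of underground salt-drought with silicate 6 members were called. In underground salt, where 1 was called, 174 passed the unadjusted threshold (23.7%, against 16.9% of all tested genes), and 59 did in unstressed aerial parts (8.19%, against 10.4%).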

How the data were processed

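The authors deposited 1 FPKM value per gene and library and a GFF3 gene annotation. Per the submitters' processing notes, TopHat2 and Cufflinks were used; versions, and whether nanopore or Illumina libraries (both named in the labels) gave the FPKM, are not given in the sources used here. Depth was estimated from the spacing of low values; 40.8 to 62.2% of them lay within 0.1 of a whole fragment, so counts were not recovered. Groups came from the labels. Columns without a sample numbered 0.

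Genes reaching 1 FPKM in 3 or more libraries entered the test, on log2(FPKM + 1), which understates changes of low genes, with limma 3.58.1 (R 4.3.3; trend and robust) and Benjamini-Hochberg adjustment over all tested genes, 24 libraries per part or all 48. Tables used pandas 2.3.3 and numpy 2.4.6, and figures matplotlib 3.10.9. The fit was tested on simulated data. Members, gene classes and tests were chosen with earlier results of these data known. For each comparison at most 2 called members per direction were named (1 for silicate), by size of change, with groups not overlapping and a group mean of at least 5 FPKM; for part differences, by adjusted p. Genes with the most exons, the greatest length, the shortest transcript and the highest control levels were also named. Between the parts' controls, same-numbered libraries deviated together (correlation 0.236 to 0.325), each best with its own number. This pairing was inferred from the data, and no fit modelled it within a condition. In every other pairwise comparison at least 1 pair was at 0.1 or below, so no pairing was inferred there. For silicate in underground salt the pairs were at 0.051, 0.394 and 0.253. Same-numbered aerial and underground libraries of the stress groups were not compared in this way. Alternatives were the pseudocount, the filter, rescaling, the replicate block, each library left out, only the groups compared and exon subsets. Added after the data were seen were removal of the length trend and of the 2 aerial libraries with the most underground transcripts.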

Additional observations from a re-analysis of the deposited data

Results flagged for a closer look

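The responses of aerial and underground parts differed by a direct test (limma, adjusted over all tested genes) in 11 results for 8 genes, each given as underground minus aerial response on the log2 scale. In drought, Glyur000156s00011998 differed by 1.23 (SE 0.26, adjusted p = 0.0188), and its call was lost without aerial control library 3, aerial drought library 1 or 2, underground control library 3, or underground drought library 1 or 2 (adjusted p 0.0551 to 0.095). Glyur000274s00012561 differed by 1.66 in drought (adjusted p = 0.0499), a call lost under most alternatives (adjusted p up to 0.177), and by 1.88 in salt (adjusted p = 0.00596). Glyur000282s00015747 differed by -0.77 in drought (adjusted p = 0.00785) and by -0.74 in salt (adjusted p = 0.00352).

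In salt, Glyur000756s00019315 differed by 0.65 (adjusted p = 0.00475). Glyur000221s00012515 differed by -0.80 (adjusted p = 0.0261), a call lost without aerial control library 1 or 3, aerial salt library 1, underground control library 1 or 3, or underground salt library 1 (adjusted p 0.0515 to 0.117). All drought and salt results named here were lost when only the 4 groups compared were fitted. In salt-drought, Glyur000756s00019315 differed by 1.22, Glyur000124s00011967 by 1.19, Glyur000002s00000231 by -1.78 and Glyur000842s00023837 by -0.55 (adjusted p from 3.26e-07 to 0.00139), and these 4 calls held under every alternative run.

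For silicate, 2 genes moved one way in every library of one setting and the opposite way in another, a difference that was not tested. Glyur004340s00039821 rose by 1.48 log2 with silicate in aerial salt-drought. In aerial drought it was at 12.4, 12.8 and 12.2 FPKM without and 11.1, 9.38 and 9.61 FPKM with silicate, and in unstressed underground parts at 15.5, 14.6 and 16.5 FPKM without and 13.3, 8.68 and 10.1 FPKM with it. Glyur000124s00011967 rose by 0.42 log2 with silicate in underground salt. In unstressed aerial parts it was at 42.5, 45.5 and 40.6 FPKM without and 36.6, 40.5 and 36.2 FPKM with silicate, and in underground salt-drought at 46.3, 44.7 and 44.2 FPKM without and 39.5, 39.6 and 38.7 FPKM with it.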

How the results depend on the processing

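Of 43 named gene results 0 changed sign, 22 kept their call under every alternative run and 21 lost it under at least 1, all 21 among others when only the groups compared were fitted. That fit gave 1 called member in aerial drought, 3 in aerial salt, 6 in underground drought, 35 in underground salt and 0 for silicate in unstressed aerial parts, aerial salt-drought and underground salt, and for the part difference in drought and in salt. With the replicate number as a block, 466 members were called between the parts, and no count moved by over 1.5 times. Among named genes the block ended 1 call, Glyur000274s00012561 for the part difference in drought (adjusted p = 0.0577, limma). The block gives each replicate number a single effect shared by all groups of a fit. Pairs within a condition, as inferred between the parts' controls, were therefore not modelled.

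Some medians over members moved beyond a limit set from the spread between libraries, with or without a change of sign. With the length trend, fitted on genes that are not members, removed, they were 0.0177 in aerial salt and 0.0747 in aerial salt-drought. In underground salt-drought the median was then 0.0329. The next values are also with that trend removed. For silicate the medians were -0.0042 in aerial drought, 0.0191 in aerial salt and -0.033 in aerial salt-drought. Underground they were 0.0199 in drought, -0.0029 in salt (0 called) and -0.0064 in salt-drought. For the part differences they were 0.0012 in drought, 0.0404 in salt (34 called) and -0.0241 in salt-drought (119 called). Rescaling gave medians of 0.0203 in underground salt-drought, 0.0528 and -0.0194 for silicate in underground drought and salt-drought, and 0.0308 and 0.13 for the part differences in salt and salt-drought. Without the 2 aerial libraries with the most underground transcripts, silicate called 0 members in unstressed aerial parts and 20 in aerial salt-drought. The cause of these shifts was not tested.

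For genes with 20 or more distinct exons and for repeat genes, medians were -0.23 and -0.0201 in aerial salt-drought, -0.011 and 0.086 in underground salt, 0.18 and 0.0124 for silicate in aerial salt-drought, 0.16 and 0.0498 for silicate in underground salt, and 0.29 and 0.16 for the salt-drought part difference. Repeat genes alone were at -0.0498 between the parts and at 0.03 for silicate in aerial salt. Over members past the filter only, median levels were 14.3 FPKM in aerial and 13.0 FPKM in underground controls.

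Leaving out 1 library at a time gave 4 to 14 called members in aerial drought, 11 to 56 in aerial salt (median -0.11 to 0.0192), 5 to 8 in underground drought, 69 to 119 in underground salt (median -0.0044 to 0.0841) and 126 to 176 in underground salt-drought. For silicate it gave 0 to 3 in unstressed aerial parts, 14 to 87 in aerial salt-drought, 0 to 34 in underground salt (median 0.0567 to 0.16) and 0 to 6 in underground salt-drought. Silicate medians ran from -0.0077 to 0.15 in aerial salt and from -0.0341 to 0.0525 in unstressed underground parts. The part differences gave 1 to 3 members in drought, 6 to 33 in salt (median 0.0043 to 0.15) and 121 to 188 in salt-drought.

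Depth is an estimate, 3 libraries a group limit the calls, and levels of repeat genes depend on a length the files do not give.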
